A study of Mus musculus with 12 samples.

Results

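Motile cilia genes were followed through 12 RNA-seq libraries of mouse adipose tissue, a tissue whose fat cells carry no motile cilia. The 37 genes were taken by symbol from a list of axonemal dyneins, radial spoke proteins, cilia and flagella associated proteins and the transcription factor Foxj1. All 37 had a row in the count table, of 53431 rows in all, and in the log2 FPKM table, of 18810 rows. Of the 37, 32 passed the filter on low counts that preceded the tests. Dnah7a, Drc1, Spag6l, Spag17 and Tekt4 did not pass it and are described by their counts.

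The groups were Bbs2-/- mice fed the glucosylceramide synthase inhibitor Genz-667161 (treated; the inhibitor made up 0.033% of the chow by weight and was given between 2 and 6 months), Bbs2-/- mice without it (untreated), and wild-type mice (WT), with 4 libraries each. All 3 groups were of mixed C57BL/6 x 129/SvJ background and were sampled at 6 months. Bbs2 encodes a subunit of the BBSome, which moves membrane proteins through cilia. Replicates are numbered in the labels, but no label says whether each number stands for its own mouse. The p-values therefore reflect how these samples vary, and that variation may be technical. Neither the fat depot nor the sex is in the labels.

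A motile cilium is built on doublet microtubules around a central pair. Outer and inner dynein arms slide the doublets, the nexin-dynein regulatory complex and the radial spokes control the sliding, and the central apparatus sets its rhythm. FOXJ1 switches on the genes for these parts in multiciliated cells, which line airways, brain ventricles, the oviduct and the efferent ducts of the testis, and related axonemes drive sperm tails. Primary cilia, which preadipocytes carry, lack the dynein arms and the central pair but share the transport machinery.

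The libraries held 16317865 to 20224200 estimated counts. In the libraries labelled Bbs2-/- the targeted gene Bbs2 stood at 53.7 to 65.4 counts per 1e6 (CPM) with the inhibitor and 53.7 to 70.6 CPM without it, against 12.1 to 12.7 CPM in those labelled WT. A gene count does not show whether the transcript is functional, and every direction given here is between libraries as labelled. Summed over 7 adipocyte markers, led by Cidec, Fabp4 and Lpl, the libraries held 32597 to 41392 CPM in treated, 22387 to 26193 CPM in untreated and 29036 to 51672 CPM in WT samples. The 7 macrophage markers summed to 406 to 884 CPM in treated, 3595 to 4985 CPM in untreated and 357 to 1150 CPM in WT samples. In bulk tissue, fewer cells of a type and less RNA per cell cannot be told apart.

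Motile cilia RNA followed the library more than the group. Summed over the 37 genes, treated samples 1 to 4 held 142, 26.1, 143 and 25.5 CPM. Untreated samples 1 to 4 held 28.0, 34.8, 28.7 and 33.2 CPM. WT samples 1 to 4 held 71.9, 23.2, 25.3 and 166 CPM. The high values fell in 2 treated and 2 WT samples, and the other samples of those groups were below all 4 untreated samples. The group means were 84.1 ± 67.3 CPM in treated, 31.2 ± 3.32 CPM in untreated and 71.6 ± 66.9 CPM in WT samples (SD, n = 4 each), so the spread within the treated and WT groups was larger than any difference between group means.

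The number of genes detected moved with the sums. At least 10 counts were reached by 36, 12, 35 and 8 of the 37 genes in treated samples 1 to 4. In untreated samples 1 to 4 this number was 13, 15, 11 and 16, and in WT samples 1 to 4 it was 30, 10, 10 and 35. No gene was at 0 in treated 1, treated 3 and WT 4, and 1 gene, Dnah7a, was at 0 in WT 1. In each of the other 8 libraries 9 to 14 of the genes were at 0, where a count of 0 allows a level of up to 3 counts, or 0.142 to 0.203 CPM.

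**Figure D1:**
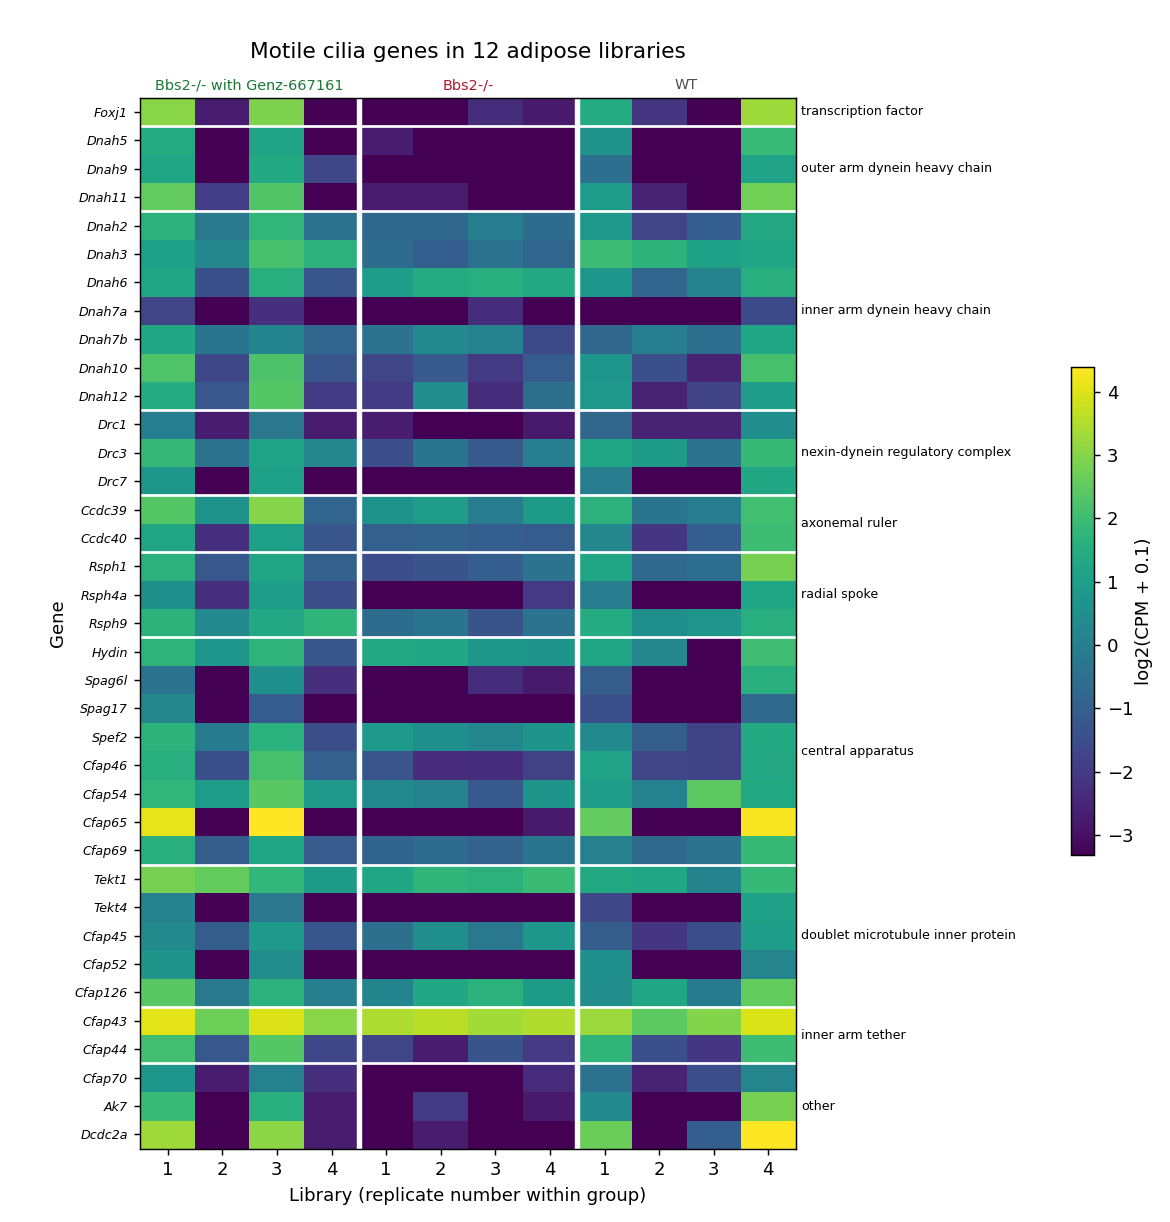
Level of each of the 37 motile cilia genes (down the page, by role) in each of the 12 libraries (across, by group), coloured by log2(CPM + 0.1). Treated 1, treated 3, WT 1 and WT 4 are bright in nearly every row, Foxj1 with 48 to 164 counts in them and 0 to 2 in the other 8, while Cfap43 and Tekt1 are bright in all 12.

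The 4 libraries with 48 or more counts of Foxj1 were treated 1, treated 3, WT 1 and WT 4. For 25 of the 37 genes, Foxj1 included, the lowest count in these 4 was above the highest count in the other 8. Since Foxj1 counts named the 4 libraries, this is a description and was not tested. The share of all genes that separate the same 4 libraries is not given here. Whether 25 of 37 is unusual is therefore not known. Of the 37 genes, 15 had over 90% of all their counts in the 4 libraries, 15 had at most 5 counts in each of the other 8, and 20 had at least 1 count in all 12. The 12 genes that did not separate the 4 libraries were Dnah3, Dnah6, Dnah7a, Dnah7b, Rsph9, Hydin, Spef2, Cfap54, Tekt1, Cfap45, Cfap126 and Cfap43. Of these, Tekt1, Dnah6, Cfap43, Cfap45 and Cfap54 had under 50% of their counts in the 4 libraries.

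Many promoters of motile cilia genes carry X-box elements, the sites of RFX transcription factors, which act with FOXJ1. RefSeq promoters (GRCm38.p6, 250 bases before to 50 after the start) were found for 31 of the 37 genes; Foxj1, Dnah3, Rsph1, Rsph4a, Cfap54 and Cfap65 had no entry. The X-box core GTTGCC was searched on both strands. It stood in 11 of the 31 promoters (35.5%) and in 14.1% of the promoters of all 27025 genes in the table. The looser GTTNCC, which contains it, stood in 25 (80.6%) and in 48.8% of all. The forkhead motif GTAAACA was in 2, Ak7 and Cfap43 (6.45%), and in 4.05% of all. A full X-box, in which the looser core is followed by its reverse complement, stood in 0 of the 31 promoters. Among all 27025 genes it stood in 41 (0.152%), so its absence from 31 promoters decides little. The matches above are thus to the core alone. Letters that match are a description, not a binding site.

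The 11 promoters with GTTGCC were those of Dnah7a, Dnah7b, Dnah10, Drc1, Hydin, Spag6l, Spef2, Cfap44, Cfap46, Tekt1 and Tekt4, which include genes that separated the 4 libraries and genes that did not. Dnah10, Drc1 and Cfap44 are shown from the first kind and Tekt1, present in all 12 libraries, from the second. Capitals mark GTTGCC or its reverse complement GGCAAC. The windows are chr5:124724835-124725134 (plus strand, Dnah10), chr5:30281143-30281442 (plus strand, Drc1), chr16:44394549-44394848 (plus strand, Cfap44) and chr11:72361833-72362132 (minus strand, Tekt1, the first of its 2 promoters in the table, the other having 0 matches), each written 5′ to 3′ along the gene.
Dnah10: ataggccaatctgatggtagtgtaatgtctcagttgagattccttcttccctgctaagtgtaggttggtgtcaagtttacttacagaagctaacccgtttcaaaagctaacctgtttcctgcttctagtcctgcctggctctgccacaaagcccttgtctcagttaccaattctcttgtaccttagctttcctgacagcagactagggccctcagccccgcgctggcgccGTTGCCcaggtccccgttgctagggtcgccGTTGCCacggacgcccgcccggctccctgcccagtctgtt
Drc1: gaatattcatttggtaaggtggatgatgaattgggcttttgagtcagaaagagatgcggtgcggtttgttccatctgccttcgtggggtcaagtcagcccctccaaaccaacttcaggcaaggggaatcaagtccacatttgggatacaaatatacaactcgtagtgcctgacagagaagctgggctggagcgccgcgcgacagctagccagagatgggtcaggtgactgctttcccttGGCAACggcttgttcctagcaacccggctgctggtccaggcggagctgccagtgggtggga
Cfap44: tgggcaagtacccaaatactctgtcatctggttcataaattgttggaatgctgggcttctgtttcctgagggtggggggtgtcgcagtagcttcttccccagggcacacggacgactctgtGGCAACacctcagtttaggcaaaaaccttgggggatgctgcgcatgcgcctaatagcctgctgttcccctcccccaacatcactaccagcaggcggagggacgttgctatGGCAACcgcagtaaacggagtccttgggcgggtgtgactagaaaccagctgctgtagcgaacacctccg
Tekt1: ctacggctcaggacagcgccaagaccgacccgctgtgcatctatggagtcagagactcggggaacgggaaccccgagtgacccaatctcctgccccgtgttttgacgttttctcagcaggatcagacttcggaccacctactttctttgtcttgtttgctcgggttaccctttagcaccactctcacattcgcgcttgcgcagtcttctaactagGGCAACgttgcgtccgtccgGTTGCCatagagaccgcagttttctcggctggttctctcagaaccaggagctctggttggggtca
The matches began 20 bases before and 10 after the start in Dnah10, 11 before in Drc1, 129 and 19 before in Cfap44, and 35 and 15 before in Tekt1. The same letters thus lie near the start of genes whose counts across libraries differ.

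Foxj1 (chromosome 11, 116330704 to 116335399, minus strand, mm10), the regulator of the motile cilia program, reached 10 counts in 4 libraries. It had 154, 1, 140 and 0 counts in treated, 0, 0, 2 and 1 in untreated, and 48, 2, 0 and 164 in WT samples. Treated and WT samples thus each split into a pair with Foxj1 and a pair nearly without it, and every untreated sample overlapped the low pairs. Its level averaged 3.86 ± 4.43 CPM in treated, 0.0368 ± 0.0476 CPM in untreated and 3.07 ± 4.47 CPM in WT samples (SD, n = 4 each). Summed over the group, its level was 105 times that of untreated samples in treated samples (95% exact counting interval 35.6 to 513) and 88.1 times in WT samples (29.8 to 431). These intervals cover counting error only and not the spread between samples.

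The outer arm dynein heavy chains, the motors of the beat, followed Foxj1. Dnah11 (chromosome 12), the most abundant of the 3 per length at a mean deposited log2 FPKM of 0.15, had 111, 3, 91 and 0 counts in treated, 1, 1, 0 and 0 in untreated, and 33, 1, 0 and 114 in WT samples. Dnah9 (chromosome 11), the least at 0.07, had 44, 0, 47 and 4 counts in treated, 0 in each untreated sample, and 11, 0, 0 and 36 in WT samples. Dnah5 (chromosome 15) had 27 to 62 counts in the 4 libraries with Foxj1 and 0 or 1 elsewhere. Against the floor of 3 counts over the untreated group, Dnah9 was at least 33.8-fold higher in treated and at least 19.4-fold higher in WT samples.

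The inner arm dynein heavy chains divided. Dnah2, Dnah10 and Dnah12 separated the 4 libraries, with 69.6, 88.4 and 78.7% of their counts in them. Dnah3, Dnah6 and Dnah7b did not, with 53.9, 43.4 and 51.8%. Dnah3 (chromosome 7, 119922671 to 120095280), the highest of the class per length at a mean log2 FPKM of 0.23, had 38, 20, 82 and 57 counts in treated, 11, 8, 13 and 10 in untreated, and 70, 46, 30 and 38 in WT samples. Every treated and WT sample was above every untreated one, with or without Foxj1 counts. Exons of Dnah3 share 1506 bases with Lyrm1 on the opposite strand, so their reads are told apart only by strand, and the strand setting of the counting is not given in the sources used here.

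Dnah6 (chromosome 6) had 44, 5, 53 and 6 counts in treated, 35, 52, 55 and 52 in untreated, and 29, 7, 15 and 48 in WT samples. Its 4 untreated samples lay within the range of the samples with Foxj1 or just above it, while treated and WT samples without Foxj1 were lower. Dnah7a, the lowest of the class at a mean log2 FPKM of 0.01, had at most 4.2 counts in any library, and Dnah7b had 5 to 46. Both are uncertain, since 43.8% of the 31-base stretches in Dnah7a exons occur in Dnah7b and their counts are fractional.

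Nexin-dynein regulatory complex genes link neighbouring doublets. Drc7 had 31, 0, 38 and 0 counts in treated, 0 in each untreated, and 16, 0, 0 and 41 in WT samples. Drc1, the lowest per length, had 17, 1, 14 and 1 counts in treated, 1, 0, 0 and 1 in untreated, and 9, 1, 1 and 22 in WT samples. Drc3, the highest, was found in every library, with 66, 12, 40 and 21 counts in treated, 5, 14, 7 and 19 in untreated, and 42, 26, 10 and 60 in WT samples. Drc1 and Drc7 were thus nearly confined to the 4 libraries, with 91.2 and 100% of their counts there, and Drc3 had 64.6%.

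Ccdc39 and Ccdc40 form the ruler that sets the repeat of spokes and inner arms along a doublet, as known from Chlamydomonas. Ccdc39 had 98, 27, 148 and 9 counts in treated, 28, 37, 17 and 37 in untreated, and 55, 10, 13 and 70 in WT samples. Ccdc40 had 44, 2, 37 and 6 counts in treated, 8, 9, 8 and 8 in untreated, and 20, 2, 6 and 67 in WT samples. Both were highest in the 4 libraries and, in the other 8, mostly higher in untreated than in treated or WT samples. Exons of Ccdc39 overlap those of Ttc14 on the opposite strand over 1256 bases.

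Radial spoke head genes differed in the same manner. Rsph4a had 26, 2, 36 and 5 counts in treated, 0, 0, 0 and 3 in untreated, and 16, 0, 0 and 38 in WT samples. Rsph1 had 58, 6, 43 and 8 counts in treated, 5, 6, 8 and 14 in untreated, and 42, 8, 9 and 119 in WT samples. Rsph9 (chromosome 17, 46122035 to 46144216), the highest of the 3 per length, had 59, 21, 46 and 61 counts in treated, 11, 14, 6 and 14 in untreated, and 49, 20, 23 and 49 in WT samples. Rsph9 resembled Dnah3, with no overlap of untreated samples with the other groups and its highest treated count in a library without Foxj1.

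Among central apparatus genes, Cfap65 (chromosome 1, 74902071 to 74935599) was the highest per length and all but absent outside the 4 libraries. It had 331, 0, 396 and 0 counts in treated, 0, 0, 0 and 1 in untreated, and 106, 0, 0 and 343 in WT samples, so that 99.9% of its counts lay in them. Summed over the group, Cfap65 was 777 times the untreated level in treated samples (95% exact counting interval 139 to 30733) and 555 times in WT samples (99.1 to 21963). Spag17, the lowest of the class per length, had 21, 0, 7 and 0 counts in treated, 0 in each untreated, and 5, 0, 0 and 9 in WT samples. Spag6l, Cfap46 and Cfap69 also separated the 4 libraries. Hydin, Spef2 and Cfap54 did not, and Hydin had 32 to 48 counts in every untreated sample.

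Doublet microtubule inner proteins line the lumen of the doublets. Cfap52 had 18 to 29 counts in the 4 libraries and 0 in the other 8. Tekt4, a tektin and the lowest of the class per length, had 19, 0, 14 and 0 counts in treated, 0 in each untreated, and 4, 0, 0 and 35 in WT samples. Tekt1, another tektin and the highest at a mean log2 FPKM of 1.74, had 133, 108, 63 and 33 counts in treated, 44, 65, 61 and 80 in untreated, and 46, 33, 15 and 60 in WT samples. The pair of tektins thus behaved differently, Tekt1 being detected throughout with overlapping groups. Cfap45 and Cfap126 were also found in all 12 libraries, with 2 to 34 and 12 to 102 counts.

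Cfap43 and Cfap44 form the tether that holds an inner arm motor in place, as known from Tetrahymena and Chlamydomonas, yet their counts differed. Cfap43 (chromosome 19), the highest of all 37 genes per length at a mean log2 FPKM of 1.93, had 325, 118, 298 and 155 counts in treated, 209, 244, 200 and 232 in untreated, and 171, 79, 116 and 265 in WT samples. Cfap44 had 79, 6, 96 and 4 counts in treated, 4, 1, 6 and 3 in untreated, and 59, 4, 2 and 67 in WT samples. Only Cfap44 separated the 4 libraries, with 90.9% of its counts there against 43.9% for Cfap43. Cfap43 shares 164 exon bases with Itprip on the same strand in the GENCODE annotation, so part of its counts is uncertain.

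Of the rest, Ak7, an adenylate kinase of the axoneme, had 22 to 120 counts in the 4 libraries and 0 to 3 elsewhere. Cfap70, the lowest of these 3 per length, had 30, 1, 18 and 2 counts in treated, 0, 0, 0 and 2 in untreated, and 12, 1, 4 and 18 in WT samples. Dcdc2a, a doublecortin family protein that binds microtubules and is also found in primary cilia, had 186, 0, 154 and 1 counts in treated, 0, 1, 0 and 0 in untreated, and 114, 0, 6 and 361 in WT samples. Dcdc2a had 99.0% of its counts in the 4 libraries, against 97.2 to 99.4% for the outer arm motors.

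Within the 4 libraries, counts were set against those of Foxj1 for the genes nearly absent elsewhere. Cfap65 had 2.15 (1.77 to 2.62) and 2.83 (2.33 to 3.45) counts per Foxj1 count in treated 1 and 3, and 2.21 (1.56 to 3.17) and 2.09 (1.73 to 2.53) in WT 1 and 4, with 95% exact counting intervals. Dnah11 had 0.721 and 0.650 in treated 1 and 3, and 0.688 and 0.695 in WT 1 and 4. These ratios lay close together although the Foxj1 count itself ran from 48 to 164. Others varied beyond their counting intervals. Cfap52 had 0.188 (0.122 to 0.281) and 0.179 (0.112 to 0.275) in treated 1 and 3, 0.521 (0.308 to 0.862) in WT 1 and 0.110 (0.0635 to 0.179) in WT 4. Spag6l ran from 0.0844 (0.0439 to 0.149) in treated 1 to 0.299 (0.213 to 0.413) in WT 4. Dcdc2a had 1.21 (0.970 to 1.51) and 1.10 (0.869 to 1.39) in treated 1 and 3, and 2.38 (1.68 to 3.40) and 2.20 (1.83 to 2.66) in WT 1 and 4.

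**Figure D2:**
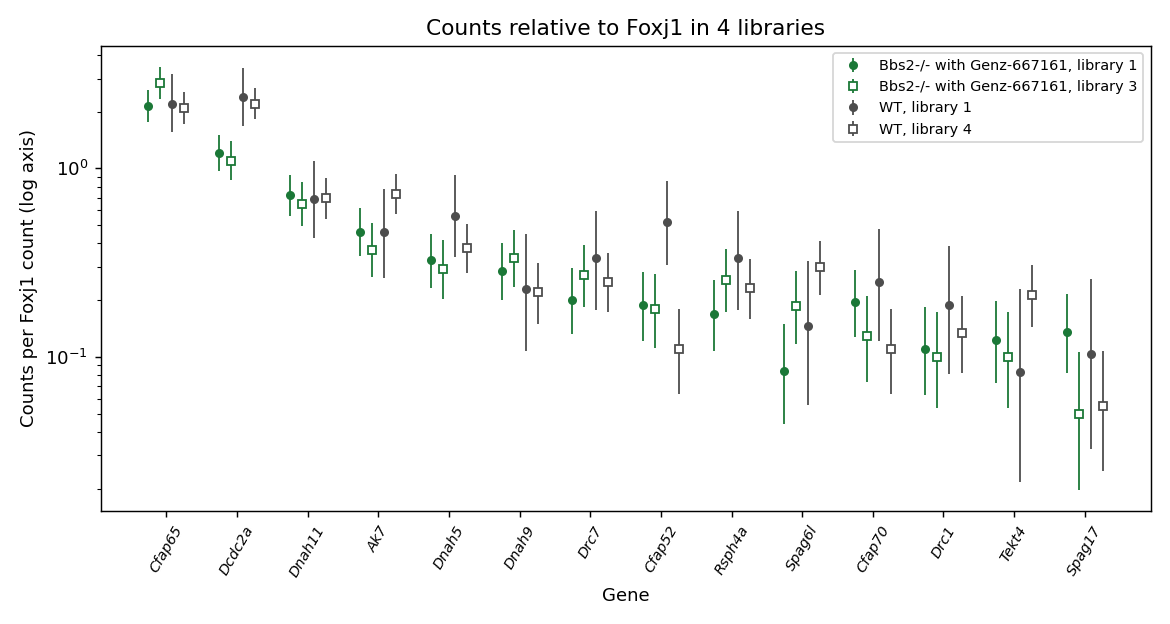
Counts of 14 motile cilia genes per Foxj1 count (log axis) in treated samples 1 and 3 and WT samples 1 and 4, with bars for the 95% exact counting interval. Cfap65 and Dnah11 keep similar ratios in all 4 samples, while Dcdc2a is near 1.1 to 1.2 in the treated and 2.2 to 2.4 in the WT samples.

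In untreated Bbs2-/- against WT adipose tissue, the comparison of the genotype, 10 of the 32 tested genes were lower and 0 higher. Of all 15968 tested genes, 19.7% were called lower, 19.6% higher and 39.2% in either direction (edgeR quasi-likelihood test, adjusted p under 0.05). The 10 were Foxj1, Dnah5, Dnah11, Dnah3, Drc3, Rsph1, Rsph9, Cfap65, Cfap70 and Dcdc2a. With the filter applied to untreated and WT samples alone, 17 of the 37 genes passed it, so many of the 32 were tested only because they were high in some libraries, and the one direction of the calls is partly set by that. Dnah3 fell by 2.40 on the log2 scale (SE 0.42, edgeR adjusted p = 0.00107), at 0.521 ± 0.111 CPM in untreated and 2.78 ± 0.841 CPM in WT samples (SD, n = 4 each). Rsph9 fell by 1.91 (SE 0.41, edgeR adjusted p = 0.00352), at 0.555 ± 0.178 CPM in untreated and 2.10 ± 0.769 CPM in WT samples. Drc3 fell by 1.89 (edgeR adjusted p = 0.0290) and Rsph1 by 2.66 (edgeR adjusted p = 0.0393). The fitted changes of Foxj1 (-6.14), Dnah5 (-6.07), Dnah11 (-6.09), Cfap70 (-4.06), Cfap65 (-8.40) and Dcdc2a (-8.50) rest on 1 to 3 untreated counts and depend on the prior count of the fit, with adjusted p between 0.0247 for Dcdc2a and 0.0499 for Dnah5.

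In treated against untreated Bbs2-/- tissue, the comparison of the inhibitor, 13 of the 32 genes were higher and 0 lower, where 18.5% of all tested genes were called higher, 18.8% lower and 37.2% in either direction (edgeR). The 13 were Foxj1, Dnah9, Dnah11, Dnah3, Drc3, Rsph4a, Rsph9, Cfap46, Cfap54, Cfap65, Cfap44, Cfap70 and Dcdc2a. With the filter applied to treated and untreated samples alone, 16 of the 37 genes passed it. The one direction of the calls is partly set by this, as many genes were tested only because some libraries held high counts. Because this comparison and the one against WT share the untreated samples, opposite signs in them are not independent. Dnah3 rose by 2.30 on the log2 scale (SE 0.42, edgeR adjusted p = 0.00135), at 2.60 ± 1.40 CPM in treated and 0.521 ± 0.111 CPM in untreated samples. Rsph9 rose by 2.13 (SE 0.41, edgeR adjusted p = 0.00195), at 2.46 ± 0.937 CPM in treated and 0.555 ± 0.178 CPM in untreated samples. Cfap46 rose by 3.44 (edgeR adjusted p = 0.0253), Cfap44 by 3.75 (0.0365), Drc3 by 1.71 (0.0447) and Cfap54 by 1.57 (0.0495). Fitted changes of 4.39 for Rsph4a to 8.96 for Cfap65 in the other genes rest on 0 to 3 untreated counts.

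**Figure D3:**
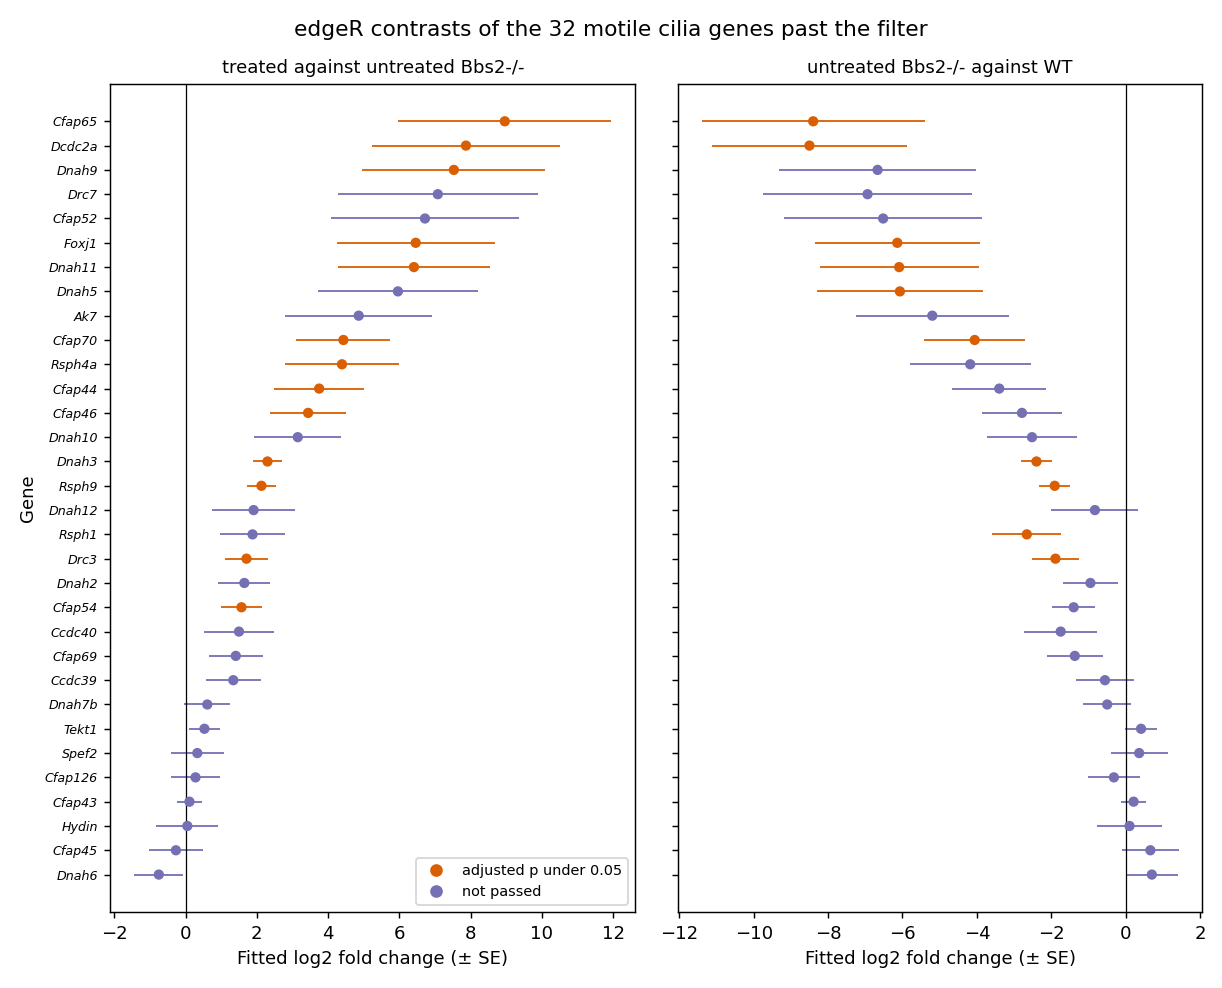
Fitted log2 fold change with its standard error for the 32 tested genes in treated against untreated Bbs2-/- samples (left) and untreated Bbs2-/- against WT samples (right), orange where the edgeR adjusted p was under 0.05. The 13 genes called on the left lie above 0 and the 10 called on the right below 0, with Dnah3 and Rsph9 having the shortest bars among them.

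In treated Bbs2-/- against WT tissue 0 of the 32 genes were called by edgeR or DESeq2 and 0 of all 37 by limma on log2 FPKM, where these called 0.257, 1.76 and 0.128% of all genes they tested. At an unadjusted p under 0.05 edgeR gave 1 gene, Tekt1 (0.95 higher on the log2 scale, SE 0.43, edgeR adjusted p = 0.470), DESeq2 gave 1 and limma 0. For Foxj1 the fitted difference was 0.32 (edgeR adjusted p = 0.972), beside a within-group SD of 4.43 CPM in treated and 4.47 CPM in WT samples.

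The comparisons were also run without the libraries that held Foxj1. These were picked by the count of one of the genes themselves and were the treated and WT samples with the highest sums, so leaving them out by itself lowers the treated and WT levels of the other genes, and the resulting directions are a description. Without treated 1, treated 3, WT 1 and WT 4, 17 of the 37 genes passed the filter, and the comparisons rest on 2 treated, 4 untreated and 2 WT samples. In untreated against WT samples 1 gene was then lower, Dnah3 (-2.29, edgeR adjusted p = 0.00541), where 18.4% of all genes were lower. Another 4 were higher, where 19.5% of all were: Dnah6 (1.68, edgeR adjusted p = 0.0131), Spef2 (2.19, 0.0203), Cfap45 (2.38, 0.0208) and Cfap43 (0.73, 0.0213). In treated against untreated samples Dnah3 (1.97, edgeR adjusted p = 0.0124) and Rsph9 (1.97, 0.0161) were higher and Dnah6 was lower (-2.98, 0.00228), where 15.9% of all genes were higher and 16.9% lower. Over all genes, 37.9% were called in either direction in untreated against WT, 32.8% in treated against untreated and 0.0123% in treated against WT samples. In treated against WT samples 0 of the 17 genes were called by edgeR, with 1 at an unadjusted p under 0.05. Rsph9 in untreated against WT samples no longer passed (-1.37, edgeR adjusted p = 0.0622).

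Of the genes called with all 12 libraries, Dnah3 in both comparisons and Rsph9 in treated against untreated samples passed under every one of the 23 alternative settings, and Rsph9 in untreated against WT under all but the fit without the 4 libraries. Leaving out single libraries changed the counts of called genes for the others. In untreated against WT samples the count was 2 without untreated 1, 2 or 3, 4 without untreated 4, 3 without WT 4 (Cfap45 among them, higher), 6 without treated 3 and 16 without WT 2. In treated against untreated samples it was 3 without treated 1, treated 3 or untreated 1, 2 without untreated 2 or 3, 4 without untreated 4 and 7 without WT 1. Lyrm1, which overlaps Dnah3, did not pass in either comparison, at -0.31 (edgeR adjusted p = 0.147) in untreated against WT and 0.01 (edgeR adjusted p = 0.964) in treated against untreated samples.

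Among 67 other motile cilia genes, 45 were tested and 22 of the 67 separated the same 4 libraries, again without a share of all genes to compare. These 22 included Gmnc, Trp73, Zmynd10 and Dnali1, which act in multiciliated cell fate, dynein assembly and the inner arm. Gmnc and Trp73 were the only listed regulators of multiciliated cell fate among them. Mcidas, Ccno, Rfx2, Rfx3, Myb, Deup1, Cdc20b and Ccdc78 did not separate the 4 libraries. Myb had 18, 6, 25 and 2 counts in treated, 29, 23, 21 and 21 in untreated, and 16, 3, 2 and 24 in WT samples. Gmnc had 18, 0, 10 and 2 counts in treated, 0 in each untreated, and 9, 0, 0 and 13 in WT samples. In untreated against WT samples 9 of the 45 were lower, a share close to the 19.7% of all tested genes, among them Dynlrb2 (-5.39, edgeR adjusted p = 0.00824), Ropn1l (-1.39, 0.00627) and Dnal1 (-0.66, 0.00528), and 2 were higher, where 19.6% of all were, Dnaaf3 (1.62, 0.00420) and Ak8 (1.59, 0.00104). In treated against untreated samples 3 were higher, Dynlrb2 (5.37, edgeR adjusted p = 0.00881), Dyx1c1 (1.35, 0.0110) and Ropn1l (1.02, 0.0302), and 3 were lower, Dnaaf3 (-1.36, 0.0105), Tppp3 (-0.78, 0.0148) and Ak8 (-1.82, 0.000495). Of all tested genes 18.5% were higher and 18.8% lower there, larger shares than among the 45. Another 34 genes of intraflagellar transport and the transition zone, which all cilia use, summed to 514 to 615 CPM in treated, 471 to 523 CPM in untreated and 546 to 609 CPM in WT samples. Of these 34, 9 were lower and 1 higher in untreated against WT samples, where 19.7% of all tested genes were lower and 19.6% higher. In treated against untreated samples 9 were higher and 0 lower (edgeR), where 18.5% of all were higher and 18.8% lower. In either direction, 39.2 and 37.2% of all tested genes were called in these comparisons, larger shares than among the 34.

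The genes whose profile over the 12 libraries was most like that of the summed motile cilia genes were Cdhr4, Ccdc24, Dnah1, Ccdc180 and Gprasp2, with a cosine similarity of 0.990 to 0.981. The next 10, down to 0.973, were Ppp1r32, Ccdc151, Ubxn10, Lca5l, Fank1, Lrrc71, Mycbpap, Mns1, Ccdc162 and Rgs11. Of these 15, 3 (Dnah1, Ccdc151 and Mns1) were on the list of other motile cilia genes. Among the 37 genes themselves the similarity ran from 0.792 for Dnah3 to 0.989 for Cfap69.

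Some markers of other tissues moved with the motile cilia genes, and others did not. Summed over 14 epithelial genes such as Krt8 and Krt18, keratins of simple epithelium, treated samples 1 to 4 held 83.5, 5.50, 35.1 and 15.3 CPM, untreated samples 12.4, 7.36, 9.98 and 11.2 CPM, and WT samples 131, 14.2, 19.4 and 59.1 CPM. At least 1 count was found for 13 or 14 of the 14 genes in the samples with Foxj1 and for 8 to 10 in the others. The 4 samples with Foxj1 were the highest of the 12, but WT 1 was above WT 4 in epithelial and below it in motile cilia RNA. The 7 mesothelium genes did not follow the 4 samples. Their sums were 37.8, 26.0, 81.0 and 76.9 CPM in treated and 37.5, 44.6, 55.7 and 64.8 CPM in untreated samples. In WT samples they were 20.6, 81.4, 109 and 57.6 CPM, with WT 1 the lowest of the 12. The 8 efferent duct genes summed to 444 to 645 CPM in treated, 263 to 493 CPM in untreated and 476 to 800 CPM in WT samples, mostly from Aqp1, and these sums did not follow the 4 samples. With Aqp1 and Esr1 left out after their values were seen, the other 6 summed to 11.4, 1.52, 7.25 and 2.68 CPM in treated, 2.27, 3.06, 4.44 and 2.50 CPM in untreated, and 28.8, 3.85, 3.58 and 15.3 CPM in WT samples. Of these 6, Cubn and Amn did not follow the 4 samples. Pax8, an efferent duct and epithelial transcription factor picked after its values were seen, had 73, 0, 27 and 0 counts in treated, 0 in each untreated, and 269, 0, 0 and 48 in WT samples.

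Some sperm cell genes were also found in these 4 samples. Prm2, a protamine of late spermatids named after its values were seen, had 13, 0, 64 and 0 counts in treated, 0 in each untreated, and 17, 0, 0 and 48 in WT samples. Other male germ cell genes did not follow the 4 samples. Dazl had 2, 3, 3 and 0 counts in untreated and 0 in all other samples. Akap3 had 2, 0, 1 and 0 counts in treated, 7, 8, 4 and 2 in untreated, and 4, 0, 0 and 6 in WT samples. Tssk1, Tssk6, Izumo1 and Ddx4 did not follow them either. Over 19 male germ cell genes without Sycp3, which had 296 to 2560 counts in every library, the sums were 3.98, 0.980, 6.72 and 0.420 CPM in treated, 1.13, 1.09, 1.45 and 0.944 CPM in untreated, and 2.50, 0.338, 0.464 and 14.5 CPM in WT samples. Treated 1, treated 3, WT 1 and WT 4 were above all others once Sycp3, left out after its values were seen, was removed. With it the sums were 15.9 to 73.9 CPM in treated, 89.4 to 129 CPM in untreated and 25.1 to 69.7 CPM in WT samples.

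Markers of other ducts and organs set single libraries apart. The 15 epididymis genes summed to 1083 CPM in WT 1, where Crisp1, a sperm-coating protein of the epididymis, had 19876 counts, with 8 of the 15 at 0. It was 9.88 CPM in WT 4, with 5 at 0, and at most 0.517 CPM in every other library. The 6 seminal vesicle and prostate genes summed to 78.5 CPM in treated 1, with 494 counts of Svs5 and 1 gene at 0. It was 3.43 CPM in WT 1, with 5 genes at 0, and no more than 0.0581 CPM elsewhere. Treated 3 thus had motile cilia RNA with neither of these lists raised. Of markers from other ciliated tissues, the 10 airway and lung genes summed to 1.52 to 25.6 CPM in treated, 1.93 to 14.2 CPM in untreated and 2.43 to 5.90 CPM in WT samples, with 5 to 8 of the 10 at 0 in each library, and did not follow the 4 libraries. Pgr, used for the oviduct, had 0 to 2 in all 12, while Ovgp1 had 29.9 to 62.9 counts in all 12. The part that any of these tissues has in the differences between groups was not tested.

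**Figure D4:**
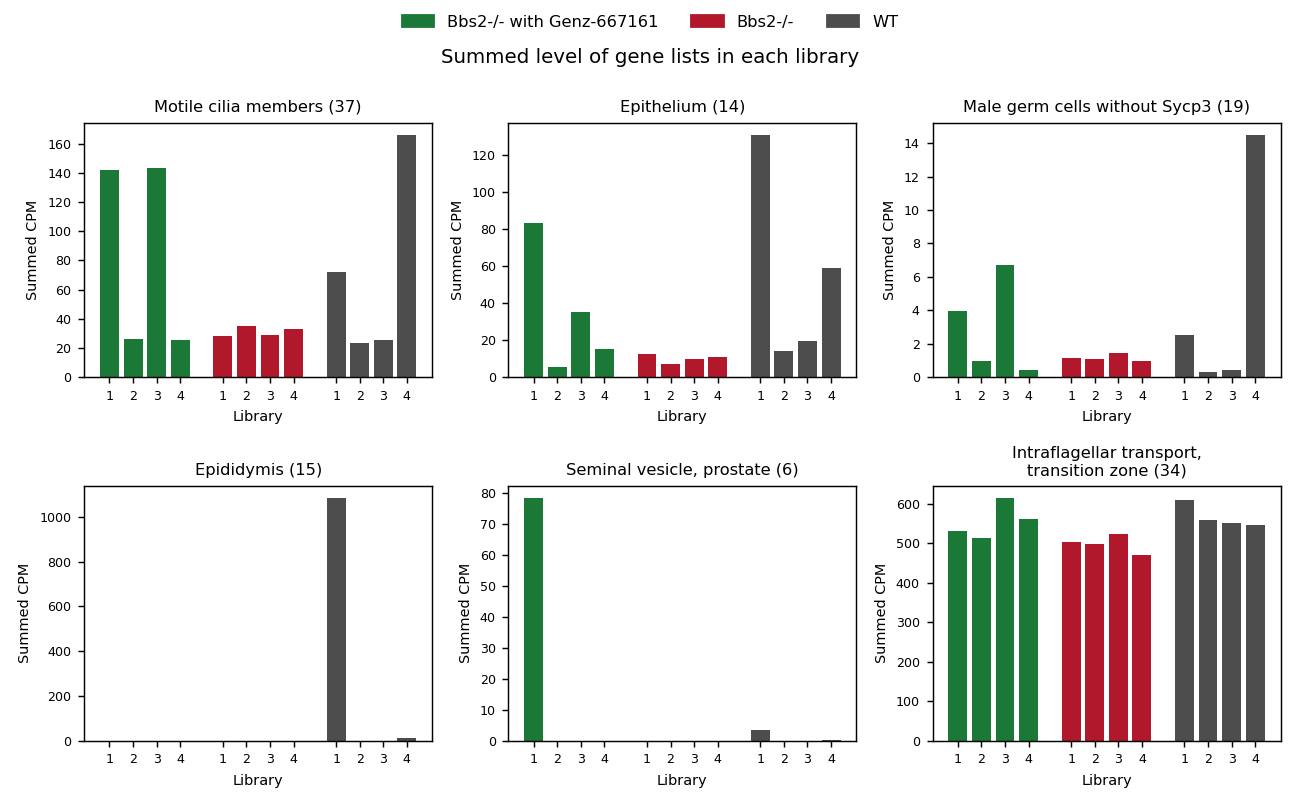
Summed CPM of 6 gene lists in each library, with samples 1 to 4 of each group from left to right and treated Bbs2-/-, untreated Bbs2-/- and WT in green, red and grey. The motile cilia and epithelium panels, and the germ cell panel with Sycp3 left out after its values were seen, have their highest bars in treated 1, treated 3, WT 1 and WT 4, the epididymis panel in WT 1 (1083 CPM), the seminal vesicle and prostate panel in treated 1 (78.5 CPM), and the panel of intraflagellar transport and transition zone genes lies between 471 and 615 CPM, with untreated samples below WT samples.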

How the data were processed

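Estimated counts per gene, unscaled, and log2 FPKM values were deposited by the authors for 12 libraries from 3 groups, after library preparation with a stranded kit, per the labels' protocols. The submitters' processing notes name mm10 as the build. For the aligner, counter, strand setting and annotation no statement was found in the sources used here. The deposited log2 FPKM values share an upper quartile of 3.96 and a lowest value of 0. Rows were matched by Ensembl identifier to GENCODE vM21 symbols; 52207 of 53431 rows matched.

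Rounded counts entered the edgeR test (version 4.0.16, R 4.3.3; TMM, filterByExpr by group, robust quasi-likelihood, all 12 libraries in 1 fit, Benjamini-Hochberg adjustment over 15968 genes, threshold 0.05), after a test on simulated counts. CPM are per 1e6 of the TMM-scaled library. Alternatives used DESeq2 1.42.0, limma 3.58.1 on log2 FPKM, other scalings and filters, a replicate block, and fewer libraries. Chi-square values divided by their degrees of freedom ran from 18.2 to 92.6 between replicates, well beyond sampling noise. Counting intervals are exact at 95%, and 3 counts serve as the floor.

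The 37 genes, the marker lists and the 4 libraries left out in 1 alternative were chosen with earlier results of these data known. Each gene past the threshold is named, and in each role the genes with the highest and lowest mean log2 FPKM are given in every library. The 15 tested genes most alike by cosine similarity are named, with up to 3 of the most abundant genes of a marker list. Pax8, Prm2, Svs5, Crisp1, Gmnc, Trp73 and Zmynd10 were also named after their values were seen. Exon overlaps come from GENCODE and promoters from RefSeq.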

Additional observations from a re-analysis of the deposited data

Results flagged for a closer look

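A library was marked where its distance from the nearest of the other 3 in its group, over the group's range, exceeded the 95% critical value of Dixon's test. Of 111 groups tested, 12 held such a library. Chance alone marks about 1 in 20 where values are normally distributed, which counts near 0 are not. A sample with any count beside 3 samples at 0 is always marked, so the 12 cannot be set against that share. Among motile cilia genes, Tekt4 in WT 4 stood at 2.03 CPM, far above the other WT samples. The remaining marks on motile cilia genes were single untreated samples with 1 to 3 counts beside 3 samples at 0: Dnah5 in untreated 1 (0.0515 CPM), Rsph4a in untreated 4 (0.142 CPM), Cfap65 in untreated 4 (0.0472 CPM), Cfap70 in untreated 4 (0.0944 CPM) and Dcdc2a in untreated 2 (0.0494 CPM). These lie at or under the floor of 3 counts.

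Among marker lists, WT 1 stood apart for epididymis genes at 1083.3 CPM and for seminal vesicle and prostate genes at 3.43 CPM. Treated 1 stood apart from the other treated samples for seminal vesicle and prostate genes at 78.5 CPM, for airway and lung genes at 25.6 CPM, with 479 counts of Cyp2f2, and for choroid plexus genes at 243 CPM, with 4661 counts of Ttr. Untreated 1 stood apart for choroid plexus genes at 37.9 CPM, with 726 counts of Ttr, while its motile cilia genes summed to 28.0 CPM. Ttr was left out after its values were seen. Without it the choroid plexus list held 1.35, 0.163, 0.900 and 0.157 CPM in treated samples 1 to 4. It held 0.464, 0.494, 0.799 and 0.614 CPM in untreated and 5.23, 0.405, 0.332 and 1.80 CPM in WT samples. The highest of these values were in the 4 libraries with Foxj1, but treated 3 was only just above untreated 3. No single gene of the list separated these libraries. Folr1 had 16, 14, 92 and 14 counts in treated 1, treated 3, WT 1 and WT 4, and 16 in untreated 3. Kl had 3 counts in both treated 3 and WT 3, and Otx2 was at 0 in all 12 libraries.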

How the results depend on the processing

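Of 10 genes lower in untreated Bbs2-/- against WT, the count was 2 with limma on log2 FPKM, 5 with no filter, 4 of 17 tested with only the compared groups, 5 without the 4 libraries with Foxj1 counts (4 of them higher) and 16 without WT 2 and WT 3. Of 13 genes higher in treated against untreated Bbs2-/-, the count was 2 with limma, 6 with no filter, 5 of 16 tested with only the compared groups and 3 without the 4 libraries (1 of them lower). Leaving out 1 library gave 2 to 16 in both comparisons, and treated against WT stayed at 0 under each of the 23 alternatives. Spef2 (-0.40), Cfap45 (-0.07) and Cfap43 (-0.16) turned sign in untreated against WT without WT 2 and WT 3, and none of them was called in either fit. Without the 4 libraries 5 of 17 genes turned sign in untreated against WT, among them Dnah12 (-0.83 with all libraries, 1.95 without the 4), and 9 in treated against untreated samples, among them Dnah12 (1.91 and -1.13), and 3 in treated against WT samples, none called in either fit. No gene called with all libraries changed sign. With only the compared groups, the called genes that still passed the filter stayed called, and the rest were not tested. The summed level in untreated 2 was 38.3 CPM on library size alone. That scaling moved the median log2 change of all genes to 0.164 in untreated against WT and -0.097 in treated against untreated samples. The causes were not tested.

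With the replicate number as a block, 4 genes were called in untreated against WT and 7 in treated against untreated samples. Same-numbered treated and untreated samples deviated together with r of 0.0999 to 0.3081. Same-numbered samples in the comparisons with WT had r of -0.1488 to 0.2775. Values for differently numbered samples are not given here, so these r values cannot decide whether the numbers pair the samples. No label ties a number to a batch or animal, and the numbers were not taken as pairing. Most genes here had few counts, which limits precision.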
